A study of Mus musculus with 8 samples.

Results

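The p53 pathway was followed through 33 genes in mouse kidney: the gene for p53 itself, regulators of its activity, and genes that p53 is known to switch on. The 33 members were taken by name from a given list, each matched 1 of the 46517 Ensembl genes in the count files through GENCODE vM21 symbols, and all 33 had enough reads to be among the 15382 genes tested. Whole kidneys of 8 mice were sequenced as stranded mRNA libraries, 4 from Control and 4 from cKO mice. All 8 animals were Xpr1lox/lox, that is, homozygous for an Xpr1 allele with exon 2 between loxP sites, and all were given doxycycline in the drinking water (2 mg/ml, 2 weeks) starting at an age of 8 weeks. In addition, cKO animals had Pax8-rtTA, a transactivator that doxycycline turns on and that is made in tubule cells, and LC-1, which then gives Cre recombinase. Control mice were Xpr1lox/lox littermates, described without these transgenes. Cre with rtTA and the loss of Xpr1 therefore go together and cannot be told apart here. The labels name each library by an animal number and say no more of how they were drawn, and p-values here cover only the spread among libraries, which may be technical.

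p53 is a transcription factor that is held at a low level because MDM2 marks it for breakdown. DNA damage and other stresses free it from that control, largely by changing the protein rather than its mRNA, and it then binds response elements near its target genes. The targets halt the cell cycle, drive cell death, repair DNA, limit oxidative stress, and, through MDM2 and the phosphatase WIP1, switch p53 off again. In the injured kidney, p53 and its target p21 are known for their part in tubule cell arrest and death.

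A response element is a pair of 10-base units, each with a CNNG core. RefSeq promoter windows (GRCm38.p6, 250 bases before to 50 bases after each annotated start) were on hand for 25 of the 33 members, in 35 windows. They were searched for the p53 consensus response element of 20 bases without a spacer, keeping the C and G of both cores and allowing up to 3 mismatches. The consensus reads the same on both strands, so a single scan covers both. Such a match was found for 9 of the 25 members (36.0%), and for 1.63% of the 27025 genes in the table. By window, 1.38% of 32851 windows held it. Several of these genes are known as p53 targets because of such elements, so the share is a description of the list. The matches are shown because they are the letters p53 is known to read. Capitals mark bases that meet the consensus and lower case marks mismatches, in the direction of transcription.

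Cdkn1a, chr17:29090928-29090947: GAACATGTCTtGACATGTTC
Ccng1, chr11:40755462-40755481: AGACcTGCCCGGGCAAGCCT
Gtse1, chr15:85859945-85859964: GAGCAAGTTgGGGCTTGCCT
Rps27l, chr9:66946296-66946315: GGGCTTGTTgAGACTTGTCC
Ckap2, chr8:22186003-22186022: AGACATGTCCtGACTTGTCa
Aen, chr7:78895937-78895956: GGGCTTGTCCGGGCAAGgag
Bbc3, chr7:16309486-16309505: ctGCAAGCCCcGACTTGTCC
Trp53, chr11:69580284-69580303: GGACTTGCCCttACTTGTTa
Sesn1, chr10:41887266-41887285: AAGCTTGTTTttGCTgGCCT

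Cdkn1a, Ccng1, Gtse1 and Rps27l held the closest matches, with 1 mismatch each, and 0.0814% of genes in the table held a match with at most 1 mismatch. Of the members with a window, 11 rose in cKO kidneys and 6 of these had a match, and 14 did not pass the test and 3 of those had a match. Psrc1, Eda2r and Phlda3, among the members that rose most, had no match in these 300 bases, which says nothing of elements further away. The Cdkn1a element lies from 51 to 32 bases before the upstream of its 2 RefSeq starts and 2841 bases before the downstream start. The window around the upstream start, chr17:29090729-29091028 on the plus strand, is given with the element in capitals.

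Cdkn1a window: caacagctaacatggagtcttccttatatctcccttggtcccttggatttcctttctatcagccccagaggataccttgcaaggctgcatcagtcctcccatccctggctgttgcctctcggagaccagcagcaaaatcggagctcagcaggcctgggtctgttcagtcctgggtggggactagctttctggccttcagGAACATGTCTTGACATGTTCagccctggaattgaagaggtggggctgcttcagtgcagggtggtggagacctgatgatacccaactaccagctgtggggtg

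Reads assigned to genes ran from 20366113 to 26155030 per library. Xpr1 stood at 80.2, 126, 108 and 103 CPM (gene counts scaled to a common library size) in the Control libraries C10, C11, C13 and C14. It was at 5.74, 26.5, 22.0 and 12.0 CPM in the cKO libraries KO16, KO18, KO19 and KO20, so each library followed its label; the count covers the whole gene and not the floxed exon alone. Some libraries stood apart within their group. The shortest sixth of tested transcripts lay above the Control mean in KO16 (0.95 on the log2 scale) and KO20 (0.49) and below it in C11 (-0.36), with the longest sixth the other way (-0.90, -0.44 and 0.39). Of the kidney's own cell types, proximal tubule markers were lower in cKO kidneys, with a summed level of 5179 to 12758 CPM in Control and 1260 to 2679 CPM in cKO libraries (5 of 7 fell, led by the transporter genes Slc5a12 at -3.16, Slc22a6 at -2.54, Slc34a1 at -2.84 and Slc5a2 at -1.57). Markers of other nephron segments overlapped, at 4161 to 5332 and 4216 to 6050 CPM. Of these 9, the collecting duct gene Aqp2 rose (1.10) and Aqp3 fell by 1.03 on the log2 scale, and Nphs1, a podocyte gene, did not pass (-0.96). Tubule injury markers were higher (674 to 809 against 3149 to 4443 CPM), and all 4 rose: Spp1 by 2.21, Lcn2 by 4.10, Havcr1 by 4.96 and Krt20 by 4.52 on the log2 scale. Summed levels were also higher for leukocyte markers (98.0 to 110.4 against 201 to 704 CPM). In the leukocyte list 3 of 12 rose, the macrophage genes Adgre1 (1.67), Lyz2 (3.23) and Cd68 (1.84), while the T cell gene Cd3g (1.62, adjusted p = 0.157) did not pass, and no marker of that list was at 0 in either group. Endothelial and stromal markers overlapped in their summed level, at 285 to 396 and 306 to 362 CPM. Of these 7, the collagen gene Col3a1 rose (1.53, adjusted p = 0.00236), and the endothelial genes Kdr (-0.98, adjusted p = 0.0717) and Pecam1 (-0.47, adjusted p = 0.145) and the collagen gene Col1a1 (0.93, adjusted p = 0.265) did not pass, although all cKO libraries lay below the Control libraries for Kdr and Pecam1. Among all tested genes, 7.5% rose and 6.61% fell. The part of these marker shifts in the p53 results was not tested, and in whole kidney more cells of a type and more RNA per cell cannot be told apart.

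Of the 33 members, 14 rose and none fell in cKO kidneys by edgeR's quasi-likelihood test (Benjamini-Hochberg adjusted p under 0.05 over all 15382 genes), and 19 did not pass. The share that rose was 42.4%, beside 7.5% of all tested genes that rose and 6.61% that fell. The median log2 fold change was 0.85 over the members and 0.01 over all genes. All 4 cKO libraries lay above all 4 Control libraries for 15 members, beside 11.2% of all genes, and all 4 lay below for 0 members, beside 11.6%. By role, 7 of 9 arrest genes and 7 of 13 death genes rose, with medians of 2.00 and 0.87. The arrest group also holds Psrc1, Gtse1 and Ckap2, which encode spindle or microtubule proteins. None of 7 repair and metabolism genes and none of the 4 genes for p53 and its regulators passed (medians 0.13 and 0.11). At an unadjusted p under 0.05, 3 of the repair and metabolism genes (Ercc5, Polk and Rps27l) and 1 of the regulators (Mdm2) were higher, DESeq2 called the same 4 genes, and limma-voom called none of them. The difference between role groups was not tested.

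**Figure D1:**
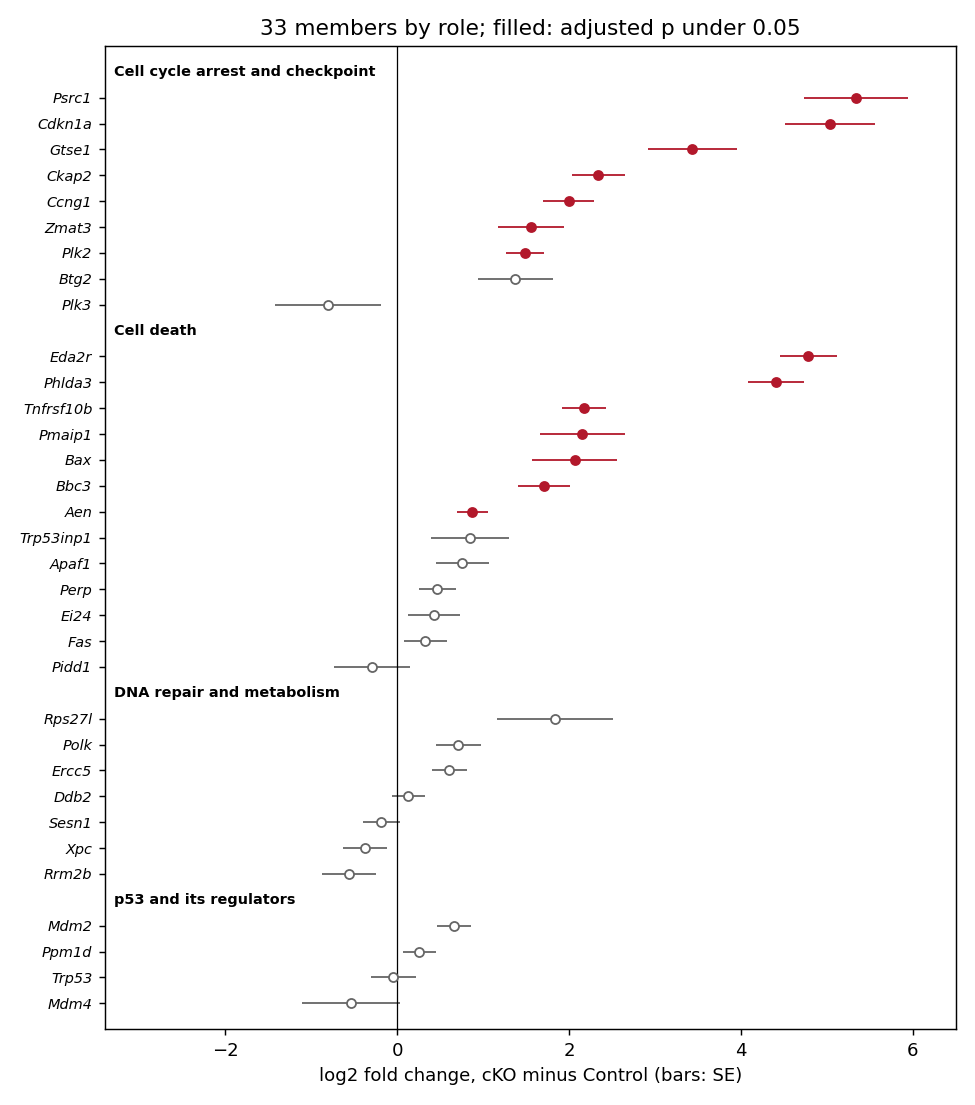
Log2 fold change of each of the 33 members, cKO minus Control, with the standard error as bars, in blocks by role; filled points have an adjusted p under 0.05. The 14 filled points all lie to the right of 0, between 0.87 (Aen) and 5.34 (Psrc1), and none lies in the lower 2 blocks.

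Among the arrest genes, Cdkn1a encodes p21, the inhibitor of cyclin-dependent kinases through which p53 blocks entry into S phase. It stood at 7.62, 11.8, 4.56 and 5.27 CPM in C10, C11, C13 and C14 and at 392, 118, 148 and 303 CPM in KO16, KO18, KO19 and KO20. The lowest cKO library held 10.02 times the highest Control library, and KO16 and KO20 were the highest of their group. The log2 fold change was 5.04 (SE 0.52, adjusted p = 0.000671), the 19th largest increase among all tested genes, and 4.18 (adjusted p = 0.00181) without KO16 and KO20.

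Psrc1, which encodes a spindle-associated protein, was close to silent in Control kidneys, with 65 reads over the 4 libraries. Its levels were 0.434, 1.56, 0.478 and 0.266 CPM in C10, C11, C13 and C14, against 42.1, 17.6, 19.2 and 34.3 CPM in KO16, KO18, KO19 and KO20. C11 was the highest Control library by far and KO16 and KO20 again led the cKO group, and the groups did not overlap. It had the largest fold change of the members, 5.34 on the log2 scale (SE 0.60, adjusted p = 0.000896), and the 14th largest of all genes. Without C11 it was 6.14 (adjusted p = 0.000597), and 4.71 (adjusted p = 0.00375) without KO16 and KO20.

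Gtse1 and Ckap2 encode microtubule-bound proteins of dividing cells, the former also a partner that keeps p53 in the cytoplasm. Gtse1 was at 0.241, 1.48, 0.695 and 0.399 CPM in C10, C11, C13 and C14 and at 5.79, 9.89, 9.54 and 5.82 CPM in KO16, KO18, KO19 and KO20, which gave 3.44 on the log2 scale (SE 0.52, adjusted p = 0.00297), and 4.10 (adjusted p = 0.00156) without C11. Here KO18 and KO19, not KO16 and KO20, were the higher cKO libraries. Ckap2 was at 1.01, 0.722, 1.61 and 1.24 CPM in C10, C11, C13 and C14, against 6.27, 4.03, 6.27 and 6.79 CPM in KO16, KO18, KO19 and KO20 (2.34, SE 0.31, adjusted p = 0.00177). Neither gene's groups overlapped. Genes of mitosis moved in the same direction: 6 of 12 listed genes rose (50%, beside 7.5% of all tested genes) and 0 fell. Their summed level was 13 to 18 CPM in Control and 38.7 to 56.3 CPM in cKO libraries. The smallest p-values were those of Tpx2, a spindle assembly factor (3.27), Aurkb (1.89), Aurka (1.79) and Cdk1 (2.25). Whether the values of Psrc1, Gtse1 and Ckap2 go with dividing cells was not tested.

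Ccng1, cyclin G1, was the most abundant target that rose. It was at 522, 259, 434 and 432 CPM in C10, C11, C13 and C14 and at 1422, 1321, 1541 and 2292 CPM in KO16, KO18, KO19 and KO20. The lowest cKO library lay 2.53 times above the highest Control library. For Ccng1, the log2 fold change was 2.00 (SE 0.30, adjusted p = 0.00281). Per kb of exonic length its mean was 117 CPM in Control and 468 CPM in cKO kidneys, whereas Cdkn1a, despite its larger fold change, went from 2.06 to 67.6 CPM per kb.

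Plk2, a polo-like kinase that p53 induces, rose from 19.6, 19.5, 16.4 and 18.9 CPM in C10, C11, C13 and C14 to 36.5, 61.3, 50.9 and 60.5 CPM in KO16, KO18, KO19 and KO20 (1.49 on the log2 scale, SE 0.22, adjusted p = 0.00289). Zmat3, which encodes an RNA-binding protein, was at 11.5, 34.2, 16.7 and 18.5 CPM in the same Control libraries and 37.1, 80.8, 74.0 and 46.6 CPM in the cKO libraries. KO16 was only 1.09 times the highest Control library, C11. The log2 fold change of Zmat3 was 1.56 (SE 0.39, adjusted p = 0.0264), and its adjusted p rose to between 0.0551 and 0.0945 when C10, C13, C14, KO18 or KO19 was left out.

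The remaining arrest genes did not pass. Btg2, an antiproliferative factor, was at 59.9, 16.6, 27.7 and 27.8 CPM in C10, C11, C13 and C14 and at 52.5, 92.3, 62.0 and 135 CPM in KO16, KO18, KO19 and KO20. KO16 lay below C10, the highest Control library, and the log2 fold change was 1.37 (SE 0.44, adjusted p = 0.0688). Without C10 it was 1.82 (adjusted p = 0.0279), and Btg2 passed in 6 of 18 alternative settings. Plk3, the other polo-like kinase of the list, had the lowest value of the members at -0.80 (SE 0.62, adjusted p = 0.456). Its levels overlapped, at 6.69 to 27.2 CPM in Control and 2.13 to 15.5 CPM in cKO libraries, with C10 highest of all.

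**Figure D2:**
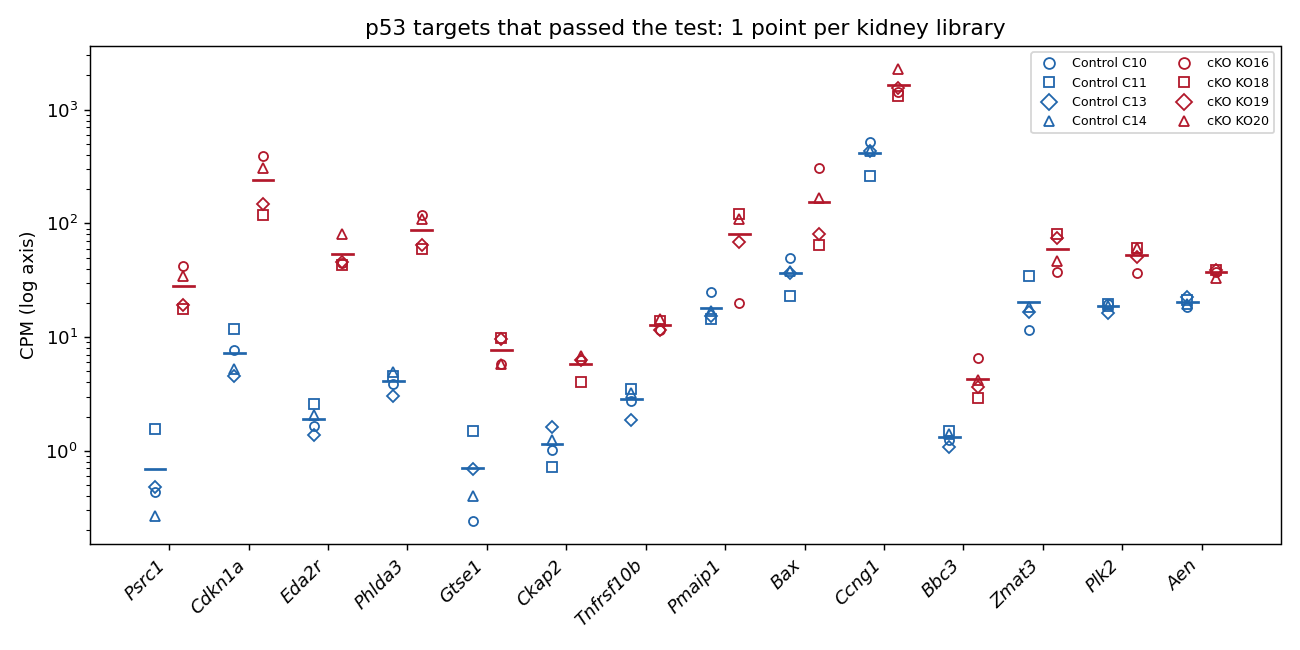
CPM on a log axis for the 14 members that rose, ordered by fold change, with 1 point for each of the 4 Control (blue) and 4 cKO (red) libraries and a bar at each group mean. The groups are apart for 13 genes; for Pmaip1, KO16 (19.9 CPM) lies among the Control libraries.

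Among the death genes, Eda2r and Phlda3 had the smallest adjusted p-values of all members. Eda2r encodes a receptor of the TNF family that binds ectodysplasin A2. It stood at 1.64, 2.57, 1.39 and 2.08 CPM in C10, C11, C13 and C14 and at 44.4, 43.1, 45.8 and 79.8 CPM in KO16, KO18, KO19 and KO20. Its groups were the farthest apart of any member, the lowest cKO library being 16.8 times the highest Control library, and KO20 stood above the other 3 cKO libraries. The log2 fold change was 4.79 (SE 0.34, adjusted p = 0.000215). Phlda3 encodes a small lipid-binding protein that restrains the survival kinase AKT. It was at 3.91, 4.57, 3.04 and 4.92 CPM in C10, C11, C13 and C14 and at 118, 59.8, 64.7 and 108 CPM in KO16, KO18, KO19 and KO20. The lowest cKO library was 12.1 times the highest Control library, and the log2 fold change was 4.41 (SE 0.33, adjusted p = 0.000215).

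The 2 death receptor genes of the list gave differing values. Tnfrsf10b, the mouse TRAIL receptor, was at 2.75, 3.53, 1.87 and 3.24 CPM in C10, C11, C13 and C14 and at 11.6, 13.8, 11.6 and 14.5 CPM in KO16, KO18, KO19 and KO20. The 4 cKO libraries lay close together, and the log2 fold change was 2.17 (SE 0.25, adjusted p = 0.000982). Fas, the receptor of FAS ligand, overlapped between groups, at 7.82 to 13.4 CPM in Control and 10.2 to 16.9 CPM in cKO libraries, with a value of 0.33 (SE 0.25, adjusted p = 0.457). The difference between the 2 receptor genes was not tested.

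The mitochondrial route to apoptosis is opened by BAX, a pore former, and by PUMA (Bbc3) and NOXA (Pmaip1), which neutralise its inhibitors. Bax was at 49.1, 23.1, 36.9 and 38.0 CPM in C10, C11, C13 and C14 and at 307, 64.8, 80.4 and 165 CPM in KO16, KO18, KO19 and KO20. The highest cKO library held 4.74 times the lowest, and the groups did not overlap. Exons of another annotated gene on the same strand, which is not among the counted genes, cover 12.2% of the exonic bases of Bax. For Bax, the log2 fold change was 2.07 (SE 0.50, adjusted p = 0.0233), and 0.98 remained without KO16 and KO20 (adjusted p = 0.0602). The call was also lost without C11, C13, C14 or KO20 (adjusted p from 0.0574 to 0.0757).

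Bbc3 was low throughout, at 1.25, 1.48, 1.09 and 1.42 CPM in C10, C11, C13 and C14 and 6.59, 2.91, 3.61 and 4.18 CPM in KO16, KO18, KO19 and KO20. The groups did not overlap, and the log2 fold change was 1.71 (SE 0.31, adjusted p = 0.00656). Pmaip1 was at 24.9, 14.6, 15.4 and 16.8 CPM in C10, C11, C13 and C14 and at 19.9, 122, 69.1 and 109 CPM in KO16, KO18, KO19 and KO20. In KO16 it lay below C10 while the other cKO libraries were higher than every Control library. For Pmaip1, the log2 fold change was 2.16 (SE 0.50, adjusted p = 0.0200). Leaving out C11, C13 or C14 ended the call (adjusted p from 0.0512 to 0.0716).

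Aen, an exonuclease that cuts DNA in dying cells, showed the smallest change that passed, with its 4 cKO libraries close together. It was at 18.2, 21.0, 22.6 and 19.4 CPM in C10, C11, C13 and C14 and at 37.6, 38.8, 39.1 and 33.2 CPM in KO16, KO18, KO19 and KO20. The log2 fold change was 0.87 (SE 0.18, adjusted p = 0.0127), and the call was lost without C10 (0.0534) or C14 (0.0637).

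The other death genes did not pass. Trp53inp1, which encodes a stress protein of apoptosis and autophagy, was at 77.1, 49.7, 70.9 and 83.1 CPM in C10, C11, C13 and C14 and at 31.4, 156, 173 and 146 CPM in KO16, KO18, KO19 and KO20. KO16 was the lowest of all 8 libraries and the other 3 cKO libraries were the highest. For Trp53inp1, the log2 fold change was 0.85 (SE 0.46, adjusted p = 0.270), and 1.18 (adjusted p = 0.00665) without KO16. It passed in 3 of 18 alternative settings. Apaf1, the scaffold that activates caspase 9, had a value of 0.76 (adjusted p = 0.143), and 4.97 to 6.74 against 5.74 to 14.9 CPM. The membrane protein gene Perp (0.47, adjusted p = 0.203) and Ei24 (0.43, adjusted p = 0.415) were abundant in both groups, at 63.7 to 101 against 90.3 to 131 CPM and 144 to 278 against 196 to 414 CPM. Pidd1, the scaffold of a caspase 2 complex, was at 1.35 to 4.97 against 1.27 to 2.73 CPM, with a value of -0.29 (adjusted p = 0.730).

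None of the 7 repair and metabolism genes passed. Ddb2 and Xpc recognise ultraviolet lesions in DNA and Ercc5 cuts beside them. Ddb2 was nearly level, at 10.8 to 11.7 CPM in Control and 9.85 to 14.05 CPM in cKO libraries (0.13 on the log2 scale, SE 0.19, adjusted p = 0.726), although exons of Acp2 on the other strand cover 23.8% of its exonic bases and the strand setting of the counting is not given in the sources used here. Xpc stood at 40.3 to 57.9 against 26.2 to 44.3 CPM (-0.37, adjusted p = 0.392). Ercc5 was at 18.9, 23.3, 22.9 and 21.8 CPM in C10, C11, C13 and C14 and at 25.8, 37.0, 37.8 and 31.9 CPM in KO16, KO18, KO19 and KO20. All its cKO libraries lay above the Control libraries, yet its value of 0.61 (SE 0.20, unadjusted p = 0.0139, adjusted p = 0.0792) missed the threshold. Ercc5 did pass without KO16 (adjusted p = 0.0195), and in 7 of 18 alternative settings in all.

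Polk, a polymerase that copies past lesions, was at 15.6, 15.8, 15.3 and 16 CPM in C10, C11, C13 and C14 and at 14.5, 32.5, 28.7 and 27.0 CPM in KO16, KO18, KO19 and KO20. KO16 was the lowest of all libraries, and the other cKO libraries were well above the Control range. For Polk, the log2 fold change was 0.71 (SE 0.26, unadjusted p = 0.0224, adjusted p = 0.109), and 0.91 (adjusted p = 0.00599) without KO16. Polk passed in 7 of 18 alternative settings. Rrm2b, the p53-inducible subunit of ribonucleotide reductase, stood at 42.6 to 68.7 CPM in Control and 19.9 to 55.0 CPM in cKO libraries (-0.56, SE 0.31, adjusted p = 0.293). Sesn1, which restrains mTORC1 signalling, was at 19.2 to 21.1 against 12.2 to 20.1 CPM (-0.19, adjusted p = 0.638).

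Rps27l, a ribosomal protein gene that p53 induces, had the widest spread of the repair group. It was at 271, 76.4, 202 and 228 CPM in C10, C11, C13 and C14 and at 1540, 190.2, 247 and 797 CPM in KO16, KO18, KO19 and KO20. KO18 and KO19 lay within the Control range, and KO16 and KO20 far above it. The log2 fold change was 1.84 (SE 0.67, unadjusted p = 0.0227, adjusted p = 0.111). With the trend of each library on transcript length removed it was 1.24 (adjusted p = 0.0387), and 0.17 remained without KO16 and KO20 (adjusted p = 0.836). At 816 bases it is the shortest member, and its count is uncertain where reads also align to its paralogue Rps27.

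The gene for p53 and its regulators did not pass. Trp53 was at 16.9, 34.0, 17.9 and 18.97 CPM in C10, C11, C13 and C14 and at 20.3, 22.8, 22.8 and 19.4 CPM in KO16, KO18, KO19 and KO20. C11 stood above all other libraries, and the log2 fold change was -0.04 (SE 0.26, adjusted p = 0.942). Mdm2, the ubiquitin ligase that is both target and brake of p53, was at 62.6, 53.02, 57.8 and 54.4 CPM in C10, C11, C13 and C14 and at 66.3, 102, 101 and 91.2 CPM in KO16, KO18, KO19 and KO20. The groups did not overlap, and KO16 lay closest to the Control libraries. The log2 fold change of Mdm2 was 0.66 (SE 0.20, unadjusted p = 0.00879, adjusted p = 0.0586). Mdm2 passed in 8 of 18 alternative settings, among them RLE scaling (adjusted p = 0.0442), DESeq2 (0.00123) and leaving out KO16 (0.00744). It did not pass with limma-voom (0.0692), without a filter (0.148) or when any other single library was left out (0.0733 to 0.181).

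Mdm4, the relative of MDM2 that blocks p53's activation domain, was at 48.3, 78.6, 64.6 and 69.0 CPM in C10, C11, C13 and C14 and at 9.03, 79.3, 68.5 and 22.4 CPM in KO16, KO18, KO19 and KO20. KO19 lay within the Control range and KO18 just above it, whereas KO16 and KO20 lay below every Control library. For Mdm4, the log2 fold change was -0.54 (SE 0.57, adjusted p = 0.606), and with 14798 exonic bases Mdm4 is the longest member. Ppm1d, which encodes WIP1, stood at 10.95 to 13.4 CPM in Control and 12.3 to 15.9 CPM in cKO libraries (0.26, SE 0.19, adjusted p = 0.431).

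**Figure D3:**
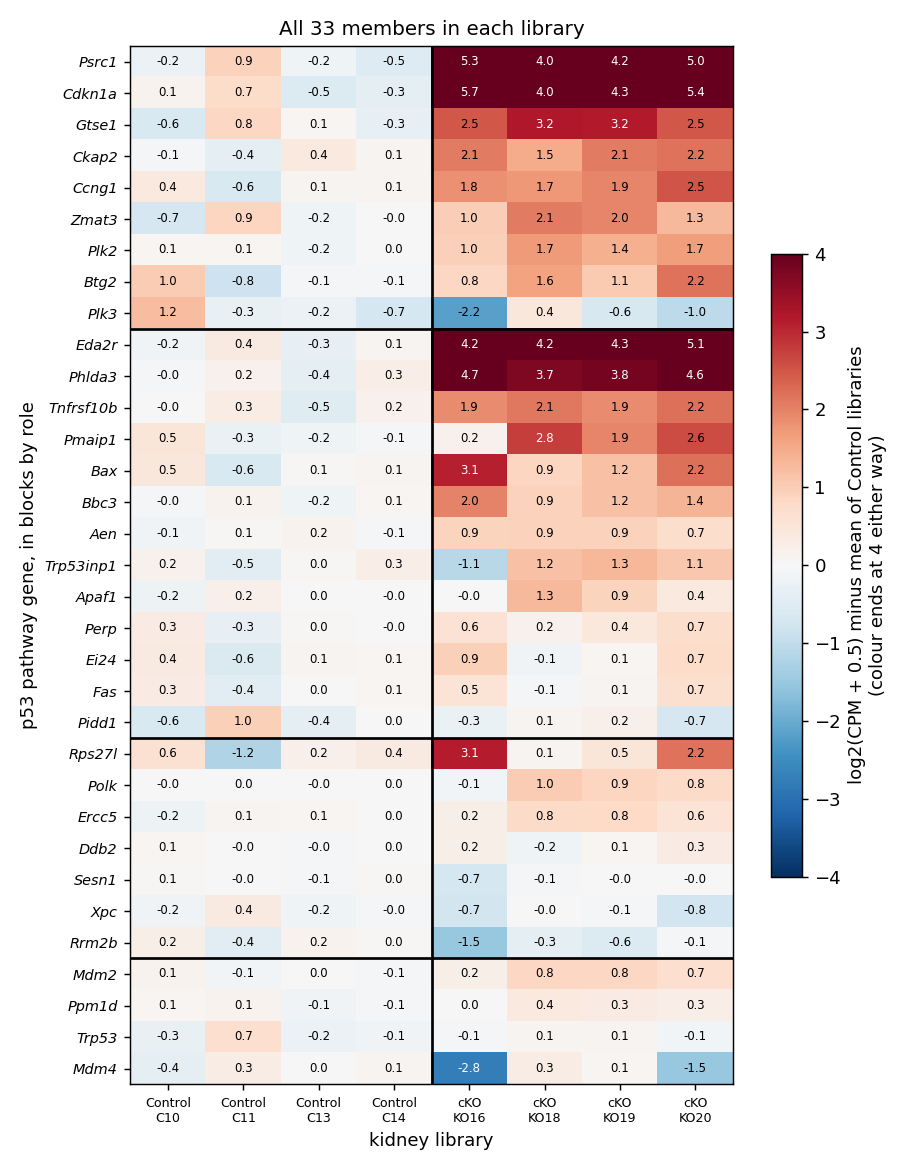
Each of the 33 members (rows, in blocks by role and ordered by fold change) in each of the 8 libraries (columns), as log2(CPM + 0.5) minus the mean of the Control libraries; colour ends at 4 either way and the numbers give the value. Psrc1, Cdkn1a, Eda2r and Phlda3 are at 3.7 or more in every cKO library, whereas Rps27l and Bax are highest and Mdm4 lowest in KO16 and KO20.

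The cKO libraries differed among themselves in ways that went with transcript length. KO16 and KO20 were the 2 highest cKO libraries for 10 members, which had a median exonic length of 2093 bases, and KO18 and KO19 were for 14 members, with a median of 5524 bases. Across the 33 members, the difference between the means of these 2 pairs of libraries (log2 of CPM + 0.5) had a Pearson r of -0.69 with log10 exonic length, and across 15339 tested genes r was -0.59. These are correlations across genes of the same 4 libraries, and are given as a description. Among the 14 members that rose, KO16 and KO20 led for 5 (Cdkn1a, Psrc1, Phlda3, Bax and Bbc3) and KO18 and KO19 for 3 (Gtse1, Zmat3 and Aen). With the length trend removed from each library, 20 members rose and 0 fell, beside 9.74% of all genes that rose and 9.58% that fell. The 14 members were among the 20, and Apaf1, Mdm2, Btg2, Polk, Ercc5 and Rps27l were added.

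**Figure D4:**
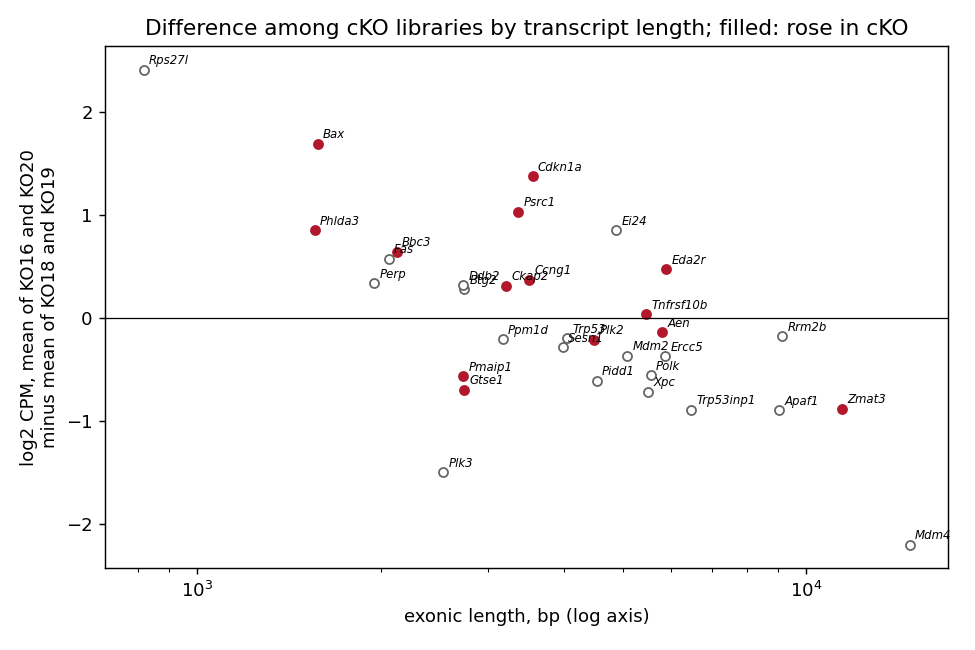
Difference between the mean of KO16 and KO20 and the mean of KO18 and KO19 (log2 of CPM + 0.5) against exonic length in bases on a log axis, 1 point for each member; filled points rose in cKO kidneys. The points run from Rps27l (816 bases, 2.41) down to Mdm4 (14798 bases, -2.20), and the members that rose lie on both sides of 0.

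Levels per kb of exonic length put the members in an order that the fold changes do not follow. In Control kidneys Rps27l (238 CPM per kb), Ccng1 (117), Ei24 (45.5), Perp (42.0) and Bax (23.3) were highest, and Pidd1 (0.570), Tnfrsf10b (0.522), Ckap2 (0.356), Eda2r (0.326), Gtse1 (0.257) and Psrc1 (0.204) lowest. In cKO kidneys Rps27l (850), Ccng1 (468) and Bax (98.0) were highest, followed by Cdkn1a (67.6), Ei24 (61.4), Perp (58.0) and Phlda3 (56.3). Neighbours in these orders, such as Ei24 and Perp, were not tested against each other.

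Other genes that p53 is known to induce, in a list of 19 with no member among them, were read from the same fit. Like the members, they were chosen with earlier results of these data known. Of the 16 tested, 6 rose (37.5%, beside 7.5% of all tested genes), 0 fell and 10 did not pass. Their median was 0.63. The smallest p-values were those of Gdf15, Zfp365, Ephx1 and Sfn. Gdf15, a stress cytokine, was at 4.49 to 11.3 CPM in Control and 37.8 to 82.5 CPM in cKO libraries (3.05 on the log2 scale, SE 0.39, adjusted p = 0.00163). Zfp365, a zinc finger gene, was at 0.133 to 0.481 against 1.75 to 3.92 CPM (3.36, adjusted p = 0.00214). Ephx1, a microsomal epoxide hydrolase, was at 43.4 to 55.1 against 168 to 514 CPM (2.56, adjusted p = 0.00275), and Sfn, the checkpoint protein 14-3-3 sigma, at 2.61 to 4.10 against 8.00 to 16.8 CPM (1.74, adjusted p = 0.00608). Trp53cor1, known as lincRNA-p21, lies on the minus strand 11796 bases from the Cdkn1a gene, and had 5 reads over the Control and 63 over the cKO libraries (adjusted p = 0.00651). It also rose, and is named here after its values were seen.

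Genes that signal damage to p53 or modify it formed the next list. Of 20 tested in a list of 22, 3 rose (15%), 0 fell and 17 did not pass, beside 7.5% of all tested genes that rose. The median was 0.03. The 3 were Brca1, a repair factor, at 0.338 to 1.04 against 1.52 to 6.30 CPM (2.51 on the log2 scale, SE 0.53, adjusted p = 0.0135), and the checkpoint kinase genes Chek2 (0.88, adjusted p = 0.0337) and Chek1 (1.34, adjusted p = 0.0402). Chek2 did not overlap between groups, at 7.22 to 10.2 against 13.8 to 22.1 CPM, and Chek1 did, at 0.565 to 0.882 against 0.850 to 2.69 CPM. H2afx, the histone whose phosphorylation marks broken DNA, came next with 0.51 (adjusted p = 0.248). Cdkn2a, which encodes the MDM2 inhibitor ARF and the cyclin-dependent kinase inhibitor p16, had 0 reads in all Control libraries and 14 over the 4 cKO libraries, too few to be tested, and it is named here after its values were seen.

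Of the 14 calls, 10 held under all 18 alternative settings: Cdkn1a, Ccng1, Plk2, Psrc1, Gtse1, Ckap2, Bbc3, Phlda3, Tnfrsf10b and Eda2r. Bax, Zmat3, Pmaip1 and Aen lost theirs without some single libraries, and without C11, KO16 and KO20 together 22 members rose and Rrm2b fell, beside 29.5% of all genes that rose and 28.2% that fell. The median of all genes moved to 0.34 when only library totals were used for scaling, where 20 members and 15.4% of all genes rose, and to 0.14 with upper-quartile factors, where 17 members and 9.49% of all genes rose.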

How the data were processed

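Whole-kidney mRNA of 4 Control and 4 cKO mice was measured. The authors deposited raw read counts per Ensembl gene, 1 file a library, made with cutadapt 1.3, STAR 2.4.0g, HTSeq 0.6.1 and GRCm38, per the submitters' processing notes. The annotation release and strand setting were not given in the sources used here. Lines naming no gene held 39.7% to 56.2% of a file's reads and were kept out. Symbols, exonic lengths and coordinates came from GENCODE vM21 (GRCm38), which lacked 512 of the 46517 IDs. Genes were filtered with filterByExpr (minimum count 10, minimum total 15), scaled by TMM and tested with edgeR 4.0.16 (R 4.3.3) quasi-likelihood F tests, prior count 2, Benjamini-Hochberg threshold 0.05. CPM use the TMM-scaled library size, and each SE was derived from the fold change and its F statistic. The procedure was tested on simulated data. Groups came from the genotype labels. All members are named, and of each comparison list the up to 4 genes with the smallest p. Some items of the comparison lists are not reported here. The members and lists were chosen with earlier results of these data known. Alternatives were RLE, upper-quartile or no scaling factors, DESeq2 1.42.0, limma 3.58.1 voom, testing without a filter, a mean of at least 1 CPM, removal of each library's loess trend on length (span 0.3), and leaving out single libraries, KO16 with KO20, or those with C11. Promoter windows were RefSeq's for GRCm38.p6. Zmat3, Tnfrsf10b, Pmaip1, Rrm2b, Ddb2, Xpc, Trp53inp1 and Perp were not matched there.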

Additional observations from a re-analysis of the deposited data

Results flagged for a closer look

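In 15 of 132 groups of 4 libraries (66 genes, each in both groups: the members, Xpr1 and the up to 4 genes with the smallest p of each comparison list), the highest or lowest library stood farther from the rest than Dixon's 95% critical value for 4 samples allows. For independent groups of normally distributed values, chance flags about 1 in 20. The groups here are CPM of the same libraries, so their count cannot be read against that rate. C11 was the library apart in 11 of the 15. Over all 121 tested genes of the lists, 27 of 242 groups had such a library, and it was C11 in 22. Among the members, Trp53 was at 34.0 CPM in C11 (16.9 to 18.97 in the other Control libraries), Psrc1 at 1.56 CPM in C11 (0.266 to 0.478) and Plk3 at 27.2 CPM in C10 (6.69 to 9.43). Eda2r was at 79.8 CPM in KO20 (43.1 to 45.8 in the other cKO libraries) and Sesn1 at 12.2 CPM in KO16 (19.04 to 20.1).

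Of the p53 pathway genes beyond the members that are named by smallest p, C11 stood apart for Ephx1, at 55.1 CPM (43.4 to 44.6), and for Chek2, at 7.22 CPM (9.82 to 10.2). The tubule injury markers Havcr1, Lcn2 and Krt20 were higher in C11 than in the other Control libraries. Havcr1 was at 20.6 CPM (1.35 to 2.46), Lcn2 at 6.98 CPM (1.22 to 1.83) and Krt20 at 4.97 CPM (0.0482 to 0.443). Spp1, of the same list, did not stand apart, at 775 CPM in C11 and 805 CPM in C10. Krt20 also stood apart in KO16, at 71.4 CPM (18.3 to 21.5 in the other cKO libraries). Some markers of resident cells were high in C11 as well, with Slc34a1 at 6768 CPM (2125 to 2856) and Slc5a2 at 502 CPM (212 to 221). The podocyte gene Nphs1 was at 32.0 CPM (5.10 to 5.98) and the collagen gene Col1a1 at 20.5 CPM (4.56 to 5.67) in C11.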

How the results depend on the processing

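The number of members that rose, 14, was 10 (without C14) to 20 (without KO16) when single libraries were left out, and 14 to 20 under other scalings, tools, filters and the length correction. None fell in these settings. Without C11, KO16 and KO20 together, 22 rose and 1 fell (Rrm2b, -0.64, adjusted p = 0.0012), 9175 of all genes passed, and Trp53 turned from -0.04 to 0.31 (adjusted p = 0.0404). The cause was not tested, and that fit has 3 Control and 2 cKO libraries. All genes that passed numbered 2170, and 1106 (without C13) to 2697 (without KO16) without single libraries, with 1436, 1200 and 1311 without C10, C14 and KO20. Over 594 member values under 18 alternatives, 515 kept direction and side of the threshold, 42 newly passed, 15 no longer passed and 22 changed sign, 1 of which passed (Trp53, above). None of the 14 members that rose changed sign. Trp53 was at 0.10 with upper-quartile factors, 0.28 with library totals, 0.016 with limma-voom, -0.16 to 0.24 without single libraries (0.24 without C11, 0.07 without KO20) and 0.0485 without KO16 and KO20. With library totals, Pidd1 was at 0.036 and Sesn1 at 0.17, and Pidd1 was at -0.52 to 0.24 without single libraries (highest without C11). Without KO16 and KO20, Ei24 was at -0.065, Fas at -0.0037, Pidd1 at 0.022, Ddb2 at -0.053 and Mdm4 at 0.18. Without C11 as well, Ei24 was at -0.25, Fas at -0.16, Pidd1 at 0.52, Ddb2 at -0.094, Xpc at 0.039, Rps27l at -0.13 and Mdm4 at 0.25. No analysis paired by litter was possible, because the labels give animal numbers and no litter. Low counts limit Psrc1, Gtse1, Ckap2 and Bbc3, which had 65, 67, 104 and 120 reads over the Control libraries.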
